A study of Canis lupus familiaris with 58 samples.

Results

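Fine needle aspirates of canine B-cell lymphoma were divided by how much haemoglobin messenger RNA they carried. The rule read the log2 level of LOC476825, a gene of the beta-globin cluster, taken from the probe set that names this gene alone, and called an aspirate globin-rich at 8 or more and globin-poor below 8. It gave 14 globin-rich and 5 globin-poor samples of 19 aspirates, within a series of 58 dogs with 1 array each. The groups were thus chosen by a measured value, and the globin levels below describe that choice without testing it. All 58 were client-owned pet dogs sampled before treatment, with B-cell lymphoma identified by flow cytometry, immunohistochemistry or both. Total RNA went onto Affymetrix canine arrays. The veterinary pathology diagnosis of every aspirate was listed as unknown. The other 39 samples, used here as a second reference, came from lymph node and were 32 diffuse large B-cell lymphomas (DLBCL) and 7 marginal zone lymphomas (MZL).

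A fine needle draws cells through tissue and blood together, so an aspirate can hold red cells, platelets and white cells of the blood as well as tumour cells. Mammalian red cells have no nucleus but young ones still carry RNA, most of it for the alpha and beta chains of haemoglobin, along with messages for haem synthesis, iron handling and the removal of organelles. Platelets carry RNA from megakaryocytes, and neutrophils and monocytes bring transcripts of their own. The comparison asked which other genes differed with the globin level. In such bulk samples, fewer cells of a type and less RNA per cell cannot be told apart.

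The array medians lay between 7.08 and 7.20 on the log2 scale. A pair of globin-rich aspirates stood apart from the rest. Aspirate 15 had the lowest mean correlation with the other aspirates, 0.945, and aspirate 4 had the next lowest, 0.948, while the globin-poor aspirates lay between 0.967 and 0.976. Aspirate 4 also had the highest 3' minus 5' difference of the actin and GAPDH controls, which reads RNA breakdown, at 1.70, followed by aspirate 1 at 0.55. The 3' minus 5' difference was 0.31 ± 0.44 (SD, n = 14) in globin-rich and 0.26 ± 0.03 (n = 5) in globin-poor aspirates, with a two-sided exact permutation p of 0.801 (adjusted over both quality measures, 0.801). Mean correlation was 0.967 ± 0.009 against 0.971 ± 0.004, with an exact permutation p of 0.343 (adjusted 0.686). The B-cell surface antigen gene MS4A1 checked the labelled tumour type, and it lay between 10.90 and 13.66 in the aspirates, within the lymph node range of 6.96 to 13.79. CD79A, a chain of the B-cell receptor, ran from 6.37 in aspirate 15 to 9.88 in aspirate 10. MS4A1 was at its highest in that same aspirate 15.

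The globin genes themselves came first. LOC476825 was at 4.00, 4.05, 4.06, 4.26 and 4.29 in the globin-poor aspirates. In the globin-rich ones it ran from 8.22 through a median of 11.25 to 13.46. A brighter probe set shared by LOC476825 and LOC609402, not used for the split, ran from 10.67 through 13.77 to 14.29 in globin-rich and from 6.09 through 7.75 to 8.78 in globin-poor aspirates, so it also kept the groups apart, though not at a level of 8. On the probe set used, the threshold fell in an empty stretch: the closest aspirate below it was aspirate 3 at 4.29 and the closest above it was aspirate 15 at 8.22. Lymph node samples ran from 3.57 to 8.70 with a median of 4.07, so the globin-poor aspirates sat at the usual lymph node level. A single node, a DLBCL, was above 8.

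LOC100855558, a gene of the alpha-globin cluster that the rule did not read, separated the same aspirates. It was at 9.71, 9.24, 9.39, 9.20 and 10.16 in globin-poor aspirates 18, 12, 17, 6 and 3. In globin-rich aspirates it ran from 11.05 (aspirate 11) through a median of 13.81 to 14.61 (aspirate 4), with no overlap. The mean difference between the groups was 3.99 for LOC100855558 and 6.76 for LOC476825 on the log2 scale. These 2 genes were the only globins of the 5 measured that did so. LOC480784, the next gene to LOC476825 in the RefSeq order of the beta cluster, ran from 10.85 to 12.23 in globin-rich and from 10.79 to 11.43 in globin-poor aspirates. The embryonic globin gene HBE1, at the far end of that cluster, ran from 8.52 to 9.30 and from 8.59 to 9.11. Its neighbour LOC485255 ran from 5.40 to 6.38 and from 5.49 to 5.71, so all 3 overlapped between the groups.

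**Figure D1:**
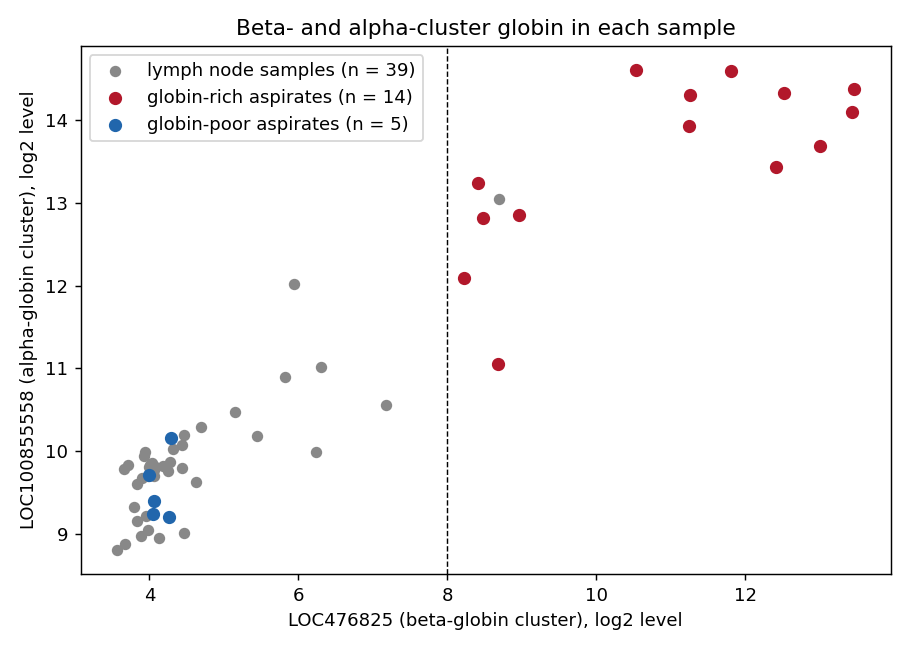
Log2 level of LOC476825 (x axis) against log2 level of LOC100855558 (y axis), 1 point per sample, in 14 globin-rich aspirates, 5 globin-poor aspirates and 39 lymph node samples; the dashed line marks the threshold of 8. The globin-poor aspirates lie among the lymph node samples, and 1 lymph node sample, at 8.70 and 13.04, lies among the globin-rich aspirates.

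Among the listed red cell genes other than globins, 1 was called between the aspirate groups. The list of haem synthesis and iron genes had 12 measured members, of which 1 rose in globin-rich against globin-poor aspirates and 0 fell. The red cell membrane list had 17 and the list of red cell maturation genes 27, with 0 called in either direction. Over all genes the limma fit called 0.232% of 15110 (adjusted p below 0.05, Benjamini-Hochberg over all genes). With 5 arrays in the smaller group, 1 call in these 56 genes says little about red cell genes. Their median differences were 0.067, -0.036 and 0.028 on the log2 scale, and the median over all genes was -0.032.

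ALAS2, the first enzyme of haem synthesis in red cell precursors, was the plainest of these genes. Its levels in globin-poor aspirates 18, 12, 17, 6 and 3 were 7.73, 7.86, 7.93, 7.85 and 7.57. Globin-rich aspirates ran from 7.68 (aspirate 11) through a median of 8.29 to 9.80 (aspirate 13). Aspirates 13, 2, 4 and 8 stood highest, at 9.80, 9.77, 9.42 and 9.37, and aspirate 9 followed at 8.95. All 5 had LOC476825 above 10, but aspirate 5, at 13.01 for LOC476825, had ALAS2 at 8.18. The groups overlapped through aspirate 11. The difference of 0.82 ± 0.31 (SE), a fold of 1.76, did not pass in limma (adjusted p = 0.498, unadjusted 0.0150).

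SLC25A39, a mitochondrial carrier that takes in glutathione and is needed for haem synthesis, was the list member that rose. Globin-poor aspirates ran from 7.73 to 8.24 and globin-rich ones from 7.70 through 9.64 to 10.53, with aspirate 15 the lowest of all 19. The difference was 1.55 ± 0.32 (limma adjusted p = 0.0437). It passed when aspirate 1, 4 or 15 was left out and missed the threshold in the other 16 turns, with adjusted p between 0.0559 and 0.152. Lymph node samples, with a median LOC476825 level of 4.07, also covered that whole range, from 7.16 to 10.80. FBXO7, a ubiquitin ligase component with a part in red cell maturation that was singled out after its values were seen, ran from 8.38 to 8.95 and from 8.30 to 10.63, a difference of 1.04 ± 0.24 (limma adjusted p = 0.0962). Without aspirate 15, FBXO7 differed by 1.15 and passed, with an adjusted p of 0.00122 in limma.

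The other preset red cell genes gave no separation. SLC4A1, the anion exchanger of the red cell membrane, differed by -0.25 ± 0.11 (limma adjusted p = 0.574), and the erythroid and megakaryocyte transcription factor gene GATA1 by 0.14 ± 0.13 (0.847). GATA1 was at 8.43 in aspirate 4 and 8.40 in aspirate 1, while the other aspirates lay between 7.52 and 7.82. BNIP3L, which removes mitochondria from maturing red cells, differed by 0.25 ± 0.16 (limma adjusted p = 0.728). CA2, a carbonic anhydrase of red cells and other cells, spanned 4.41 to 10.91 in globin-rich and 4.43 to 11.53 in globin-poor aspirates, and aspirate 17, with a globin level of 4.06, was its highest.

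No platelet gene was called between the groups either. Of 24 measured members of the platelet list 0 rose and 0 fell, with a median difference of 0.006. Over all genes 0.232% were called, so 0 of 24 is near that share and says little about platelet genes. PPBP, a chemokine stored in platelets, ran from 6.09 to 6.69 in globin-rich and from 6.14 to 6.65 in globin-poor aspirates. The platelet integrin gene ITGA2B differed by 0.0072 ± 0.11 and the platelet tubulin gene TUBB1 by -0.068 ± 0.13. GNG11, a G protein gamma subunit that platelets and endothelial cells express, was at 8.89, 8.21, 8.60, 9.74 and 9.30 in globin-poor aspirates and ran from 7.55 (aspirate 8) through 9.92 to 11.48 (aspirate 4) in globin-rich ones. Its difference of 0.95 ± 0.47 did not pass (limma adjusted p = 0.641).

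White cell genes of blood were not called either. The neutrophil list had 24 measured members, the monocyte and macrophage list 18, and the eosinophil, basophil and mast cell list 11. In either direction 0 of these were called, which is again near the share of 0.232% over all genes. S100A8, a calcium-binding protein gene of neutrophils and monocytes, was at 8.84, 6.51, 10.59, 9.26 and 10.93 in globin-poor aspirates 18, 12, 17, 6 and 3. In globin-rich aspirates it ran from 6.30 (aspirate 11) through 9.62 to 12.85 (aspirate 15). The spread within each group was larger than the difference of 0.29 ± 0.86 (limma adjusted p = 0.971). Its partner S100A9 differed by 0.46 ± 0.77, the neutrophil gelatinase gene MMP9 by 0.23 ± 0.26 and the granulocyte growth factor receptor gene CSF3R by -0.16 ± 0.11. Aspirates 15 and 2 had the highest levels of both S100A8 and MMP9, at globin levels of 8.22 and 11.81. The monocyte receptor gene CD14 differed by 0.053 ± 0.19 and the lysozyme gene LYZ by 0.019 ± 0.30.

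**Figure D2:**
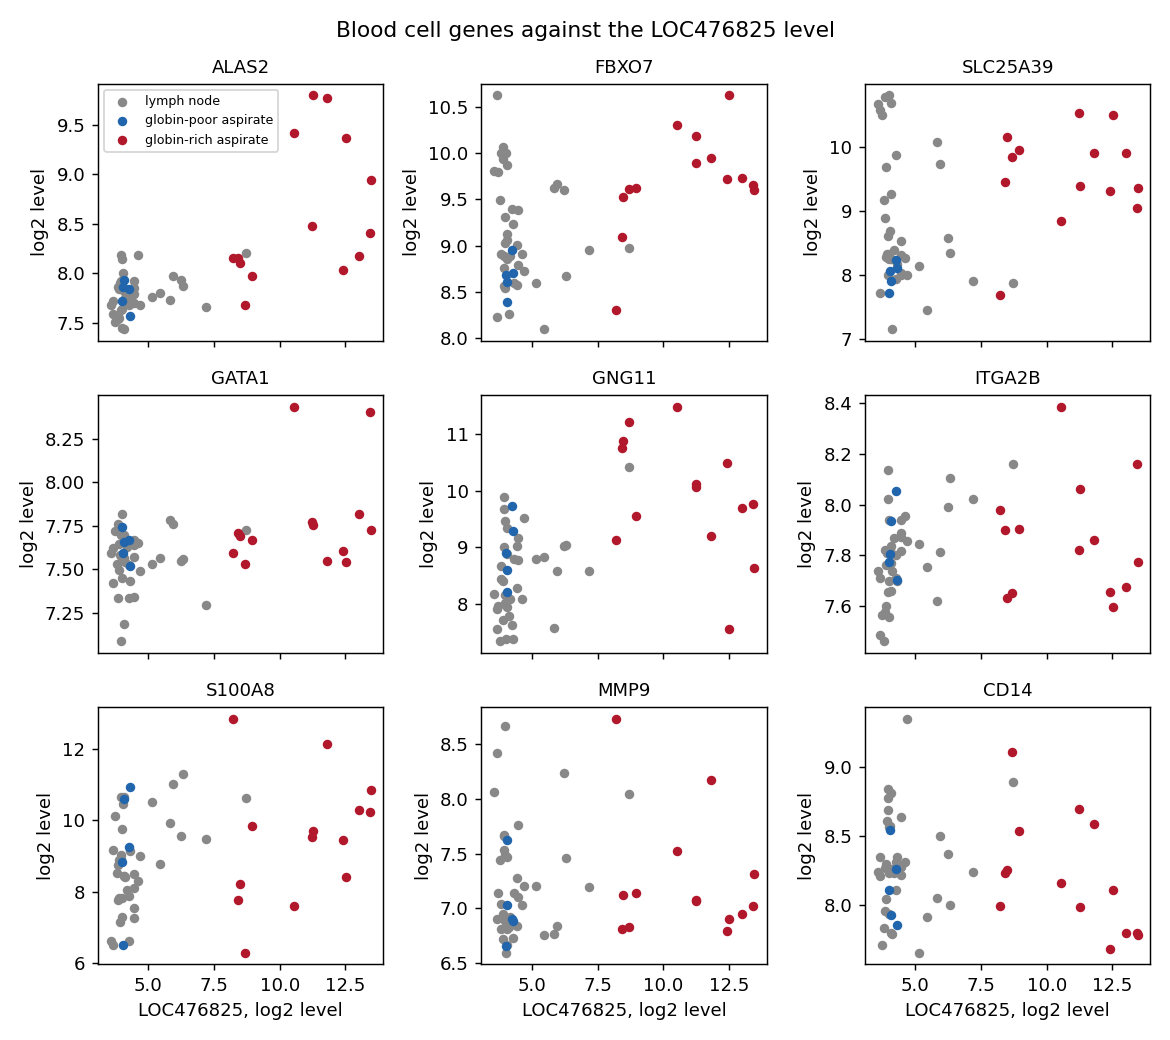
Log2 level of 9 blood cell genes (y axis, a panel each) against the log2 level of LOC476825 (x axis), 1 point per sample, in globin-rich aspirates (red), globin-poor aspirates (blue) and lymph node samples (grey). ALAS2 reaches 9.80 in globin-rich aspirates against 8.20 in lymph node, while S100A8, MMP9, CD14 and ITGA2B overlap between the groups.

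The remaining cell type and program lists were also without calls, where 0.232% of all genes were called. Of 22 measured T-cell genes, 15 cytotoxic and natural killer genes, 16 B-cell genes, 9 plasma cell genes, 22 fibroblast and matrix genes, 20 endothelial and mural genes, 11 adipocyte genes, 12 skeletal muscle genes and 9 keratinocyte genes, 0 rose and 0 fell. Neither did any of 25 proliferation, 19 interferon, 9 MHC class II, 21 immediate early, 16 hypoxia, 10 heat shock, 18 MYC target or 57 ribosomal protein genes. The widest list median was that of node stroma chemokines, 0.53 over 10 genes, with 9 higher, 1 lower and 0 called. CD79A ran higher in globin-rich aspirates by 1.20 ± 0.44 (limma adjusted p = 0.481). Without aspirate 15 it was called, together with CD22, an inhibitory receptor of B cells, and CD74, the MHC class II invariant chain. That fit called 130 of 15110 genes, among them 2 of 16 B-cell and 1 of 9 MHC class II genes. The list medians there were 0.090 and -0.021. With all aspirates 5 of the 16 B-cell and 7 of the 9 MHC class II differences were below 0. FOS, an immediate early transcription factor gene, ran from 6.98 to 13.67 in globin-rich and from 9.45 to 13.09 in globin-poor aspirates (difference -1.86 ± 1.03, limma adjusted p = 0.690).

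**Figure D3:**
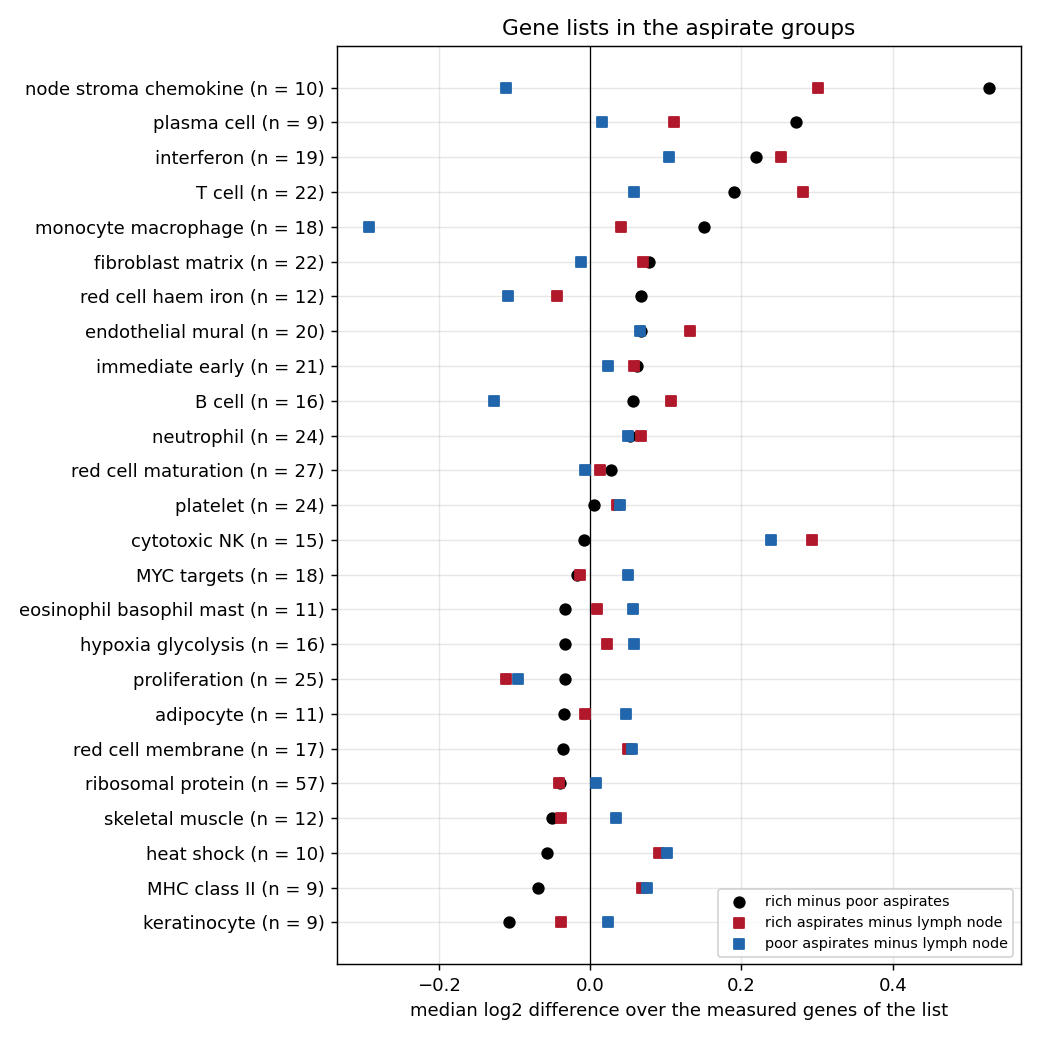
Median log2 difference over the measured genes of each list (x axis; the number of genes is beside each name) for globin-rich minus globin-poor aspirates (black), globin-rich aspirates minus lymph node (red) and globin-poor aspirates minus lymph node (blue). Lymph node samples are shared by the red and blue points; the red cell, platelet and neutrophil lists have black points between -0.036 and 0.067, and the node stroma chemokine list is at 0.53.

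Apart from SLC25A39, the genes that passed between globin-rich and globin-poor aspirates lay outside the blood cell lists. Of 15110 genes other than globins, 23 rose (0.152%) and 12 fell (0.0794%), and 1228 had an unadjusted p below 0.05 where chance gives 755.5. Complete separation of the 14 from the 5 aspirates was found in 21 genes (0.139%), of which 13 were among the 35 called. In 12 of the 21 the globin-rich aspirates lay above (0.0794%) and in 9 below (0.0596%). Those that rose included the splicing and export helicase DDX39B, the helicase DDX6 of messenger RNA decay, the RNA-binding proteins LARP1 and HNRNPUL1, the cap methyltransferase PCIF1, the ubiquitin-activating enzyme UBA1, the cullin CUL5 and the transcriptional corepressor TRIM28.

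DDX39B was at 9.69, 8.87, 9.34, 9.27 and 9.17 in globin-poor aspirates 18, 12, 17, 6 and 3. Of the globin-rich aspirates 13 lay between 11.09 and 11.95, and aspirate 15 was at 9.34. The 13 were thus all above the globin-poor group, and aspirate 15 was within it. The mean difference was 2.03 ± 0.28 (limma adjusted p = 0.00118). TRIR, an RNase named for its interaction with telomerase RNA, showed the same layout, from 7.27 to 7.63 in globin-poor aspirates, at 6.43 in aspirate 15, and at 9.09 or more in the other globin-rich ones (difference 2.27 ± 0.44, limma adjusted p = 0.0285).

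GIGYF1, a GRB10-binding adaptor, was at 5.21, 6.00, 5.80, 6.44 and 5.50 in globin-poor aspirates 18, 12, 17, 6 and 3 and ran from 6.50 (aspirate 15) through 8.00 to 8.65 in globin-rich ones. Its groups did not overlap, although aspirate 15 lay only just above aspirate 6 (difference 2.11 ± 0.25, limma adjusted p = 0.000289). UBA1 had a tight globin-poor group at 9.97 ± 0.07 (SD, n = 5) against 11.32 ± 0.45 (n = 14). Further genes that rose were the ceramide transporter gene CERT1 by 1.81, ANKRD44 by 1.79, the septin gene SEPTIN1 by 1.72, the common cytokine receptor chain gene IL2RG by 1.61, the mitochondrial carrier gene UCP2 by 1.52, FAM107B by 1.37 and the B-lineage transcription factor gene TCF4 by 1.34 (all limma adjusted p between 0.00756 and 0.0486). TRIM28 rose by 1.20, DDX6 by 1.22, the calpain subunit gene CAPNS1 by 1.15 and CUL5 by 1.06.

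Among the genes that fell, MORC1, a germ cell gene that silences transposons, was at 8.22, 7.53, 8.49, 7.06 and 8.81 in globin-poor aspirates 18, 12, 17, 6 and 3 and ran from 4.79 through 5.16 to 6.49 (aspirate 15) in globin-rich ones. Its difference of -2.65 ± 0.27 had the smallest adjusted p of any gene, 6.79e-05 in limma, and the groups did not overlap. The testis gene FANK1 fell by 1.40, LOC610994 by 1.43, the myelin glycoprotein gene OMG by 1.39, the neuronal adhesion gene CNTN1 by 0.91, and PIGF, of glycolipid anchor synthesis, by 0.73. LOC477000, the fatty acid gene ACSM3, LCA5L, the homeobox genes TLX1 and HOXA2 and the olfactory receptor gene OR2T2 fell by 0.35 to 0.58. Of these, LCA5L, TLX1, HOXA2 and OR2T2 were at low levels. Their globin-poor means were 6.14, 5.85, 5.61 and 6.52, below the lowest array median of 7.08. With a filter on low levels, 26 genes rose and 7 fell among 11333 tested.

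The count of called genes depended on single aspirates. Leaving out aspirate 15 raised it from 35 to 130, with all 35 still among them, and leaving out both aspirates 15 and 4 gave 185. Of the 27 named called genes, 10 passed in all 19 turns: MORC1, GIGYF1, FANK1, LOC610994, DDX39B, UBA1, TRIM28, CNTN1, CERT1 and TCF4. The count was 12 without aspirate 17, 13 without aspirate 6, 14 without aspirate 3 and 16 without aspirate 12, all globin-poor. It was 21 without aspirate 14, 22 without aspirate 9 or aspirate 19, and 23 without aspirate 8. Aspirate 15 lay on the globin-poor side of the midpoint between the group means for 24 of the 35 genes. That number was 0 to 3 for each of the other globin-rich aspirates and 34 or 35 for each globin-poor one. The 35 genes were called for differing between these same aspirates, so the low and high numbers of the other aspirates follow from that choice.

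The level of LOC476825 as a number, and not only the split, was fitted as well. Over all 19 aspirates the continuous level called 20 genes, 15 of them among the 35. At a threshold of 9, which moved the 5 aspirates between 8.22 and 8.97 to the lower group, 0 genes other than globins passed in limma, with 997 at an unadjusted p below 0.05. Fitted against LOC476825 inside the 14 globin-rich aspirates, 0 of 15110 genes passed (732 at an unadjusted p below 0.05, smallest adjusted p 0.789), and 0 passed without aspirate 15 (752). Of the 35 genes, 31 had a slope there of the same sign as their difference, and 3 an unadjusted p below 0.05. LOC100855558 had a slope of 0.37 per log2 unit of LOC476825. In the node stroma chemokine list 10 of 10 slopes were below 0, with a median of -0.20, against 49.2% above 0 over all genes, and 0 were called.

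Lymph node samples, in which the rule chose nothing, gave an independent set in which to look. For all 35 genes, node values lay on both sides of the midpoint between globin-rich and globin-poor aspirates. DDX39B was in a low range of 8.66 to 10.13 in 27 nodes and in a high range of 10.90 to 11.85 in 12. These ranges were read off after the values were seen. LOC476825 ran from 3.57 through 3.96 to 5.94 in the 12 nodes with high DDX39B and from 3.67 through 4.28 to 8.70 in the 27 with low DDX39B. The 12 nodes lay on the globin-poor side for 1 to 3 of the 35 genes, and the 27 nodes for 18 to 34. High levels of DDX39B and its companions were thus present in nodes with LOC476825 at 5.94 or below. In the MZL node at 5.94, LOC100855558 was at 12.02, so not every one of these nodes was low in both globins. Of the 7 MZL nodes, 2 were in the high range.

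Tested against the LOC476825 level over the 39 nodes, 0 of the 35 genes passed. Their slopes had the same sign as the aspirate difference in 5 genes, 0 of these with an unadjusted p below 0.05. Of those with the opposite sign, 6 had an unadjusted p below 0.05 in limma. LOC476825 had a median of 4.07 and a maximum of 8.70 in nodes, against 8.22 to 13.46 in globin-rich aspirates. The node slopes therefore cannot show whether the 35 genes follow LOC476825 at globin-rich levels. With the DDX39B level as a covariate in the aspirates, a fit chosen after the data were seen, 0 of the 35 were called and 52 other genes were. Since DDX39B is one of the 35 and nearly the same variable as the group, with 13 of 14 globin-rich and 0 of 5 globin-poor aspirates in its high range, that loss follows from the construction of the fit and is no test of the 35. No scan date or batch label was used here.

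**Figure D4:**
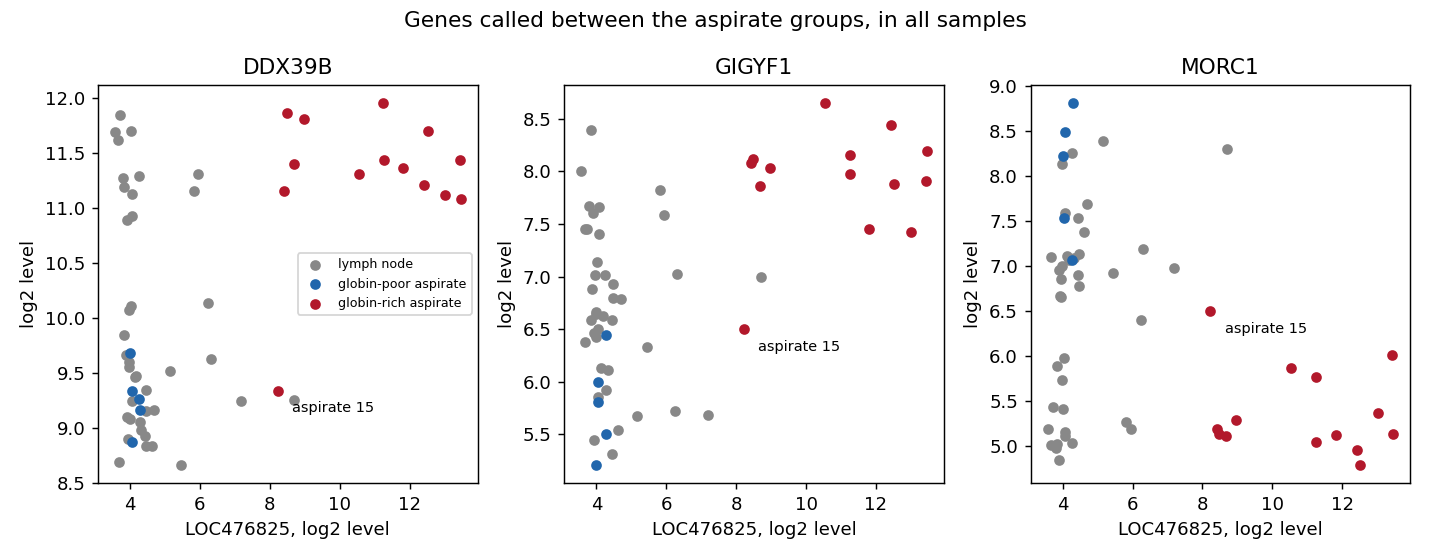
Log2 level of DDX39B, GIGYF1 and MORC1 (y axes) against the log2 level of LOC476825 (x axis), 1 point per sample, in globin-rich aspirates (red), globin-poor aspirates (blue) and lymph node samples (grey), with aspirate 15 marked. Nodes with LOC476825 near 4 cover both the globin-poor and the globin-rich levels of DDX39B, and aspirate 15 lies at 9.34 beside the globin-poor aspirates.

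Across the nodes, a single gene other than LOC476825 itself followed its level. LOC100855558 rose by 0.62 ± 0.07 (SE) per log2 unit of LOC476825 (limma adjusted p = 2.00e-07), 1 call among 15114 genes (0.00662%), with 1360 at an unadjusted p below 0.05. Without the node of highest LOC476825 its slope was 0.53 (limma adjusted p = 0.0022). ALAS2 had a slope of 0.065 ± 0.028 (limma adjusted p = 0.452), and 0.041 without that node.

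Among the genes with the next smallest p were ALX1 with a slope of 0.40, the water channel gene AQP1 of red cells and vessels with 0.19, and the clotting protein gene VWF of endothelium and platelets with 0.19 (limma adjusted p of 0.0559, 0.0559 and 0.0876). S100A8 had a slope of 0.58 ± 0.16 and S100A9 one of 0.49 ± 0.15 (limma adjusted p = 0.187 and 0.205). In the neutrophil list 22 of 24 slopes were above 0 and in the platelet list 20 of 24, against 55.7% of all genes, and 0 members of either were called. Other lists leaned alike: node stroma chemokines 10 of 10, endothelial 17 of 20, fibroblast 17 of 22 and ribosomal protein 47 of 57. The red cell lists gave 7 of 12 for haem and iron, 15 of 17 for membrane and 13 of 27 for maturation. The interferon list had 1 of 19. OMG had a slope of 0.44 in nodes and -0.17 over the 19 aspirates. The interaction, added after the data were seen, gave a difference of -0.61 ± 0.11 (limma adjusted p = 0.0128), 1 of 4 genes called among 15114 (0.0265%).

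Set against lymph node, globin-rich aspirates differed in 278 genes. This count comes from 14 arrays against 39 and the 35 between aspirate groups from 14 against 5, so their sizes cannot be compared. The contrast with node also joins globin level with specimen type and with diagnosis, which was unknown for every aspirate. In the 58-sample fit 189 of 15110 genes rose (1.25%) and 89 fell (0.589%), 1.84% in all, with 2415 at an unadjusted p below 0.05. Of the 12 haem and iron genes 1 rose and 0 fell, with 8 of 12 differences below 0 and a median of -0.044, and of the 27 red cell maturation genes 1 rose and 0 fell, with 12 below 0. The median over all genes was -0.016. ALAS2, the member of the first list that rose, passed with the smallest adjusted p, 1.78e-05 in limma, at 0.82 ± 0.12 above the node mean of 7.78 ± 0.20 (SD, n = 39). No node exceeded 8.20, and 7 globin-rich aspirates did. The ALAS2 difference stayed between 0.73 and 0.89 and called when each globin-rich aspirate was left out in turn. GATA1, that of the second, rose by 0.22 ± 0.06 (limma adjusted p = 0.0468). In the platelet list 3 of 24 rose and 0 fell, namely GNG11 by 1.40 ± 0.25, MYLK, a myosin kinase that smooth muscle also expresses, by 0.97 ± 0.19, and the platelet lipoxygenase gene ALOX12 by 0.27 ± 0.07 (limma adjusted p = 0.000945, 0.00304 and 0.0306). In that list 13 of 24 differences were above 0 and 11 below, with a median of 0.036. In the neutrophil list 0 of 24 passed. GNG11 and MYLK passed whichever globin-rich aspirate was left out. At a threshold of 9, ALAS2 (1.15), GATA1 (0.29), GNG11 (1.17) and ALOX12 (0.37) still passed, and MYLK, at 0.69, did not (limma adjusted p = 0.144). GATA1 and ALOX12 were highest in aspirates 4 and 1, those with the highest 3' minus 5' difference, whose part in the result was not tested otherwise: without aspirate 1 the adjusted p was 0.153 for GATA1 and 0.103 for ALOX12, and without aspirate 4 it was 0.140 and 0.100.

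Lymphoid and stromal genes were also among those that rose against node. Over all genes 1.25% rose and 43.8% of differences were above 0, against 56.1% above 0 for globin-poor aspirates minus node. The B-cell list had 0 of 16 called, with 11 differences above 0 and 5 below. The fibroblast and matrix list had 0 of 22 called, with 15 above 0 and 7 below. In the node stroma chemokine list 1 of 10 was called, with 8 above 0 and 2 below. In the T-cell list 3 of 22 rose, CD28 by 0.38, CD6 by 0.28 and the co-receptor gene CD4 by 0.24, and 21 of 22 differences were above 0, with a list median of 0.28. For globin-poor aspirates against the same nodes 18 of 22 were above 0, with a median of 0.058 and 0 called. At a threshold of 9, 0 of the 22 were called, with a median of 0.29. The natural killer receptor gene NCR3 rose by 0.22 and CCL21, the chemokine of lymphatic vessels and node stroma, by 0.81 ± 0.22. Both NCR3 and CCL21 were lost at a threshold of 9 (limma adjusted p = 0.156 and 0.177). Among 20 endothelial and mural genes 1 rose and 0 fell, the co-receptor gene ENG by 0.21, with 18 differences above 0, and it too was lost at a threshold of 9 (0.209). The adipokine gene LEP was the 1 of 11 adipocyte genes called, at 0.22, in a list with 5 differences above 0, 6 below and a median of -0.0065, and it was highest in aspirates 1 and 4. The fast muscle troponin gene TNNT3 was the 1 of 12 skeletal muscle genes called, at 0.22, in a list with 4 above 0, 8 below and a median of -0.039. Larger rises were those of the complement gene C3 by 1.19, the protease inhibitor gene SERPINE2 by 1.08, the caveolae gene CAV1 by 1.01, the actin-binding gene CNN3 by 0.99, the basement membrane collagen gene COL4A1 by 0.97 and SNCG by 0.90 (all limma adjusted p between 0.00173 and 0.0369). Aspirate 11 was the highest of all 19 aspirates for C3, CAV1, CNN3, COL4A1, SNCG, MYLK and CCL21, at 10.83, 10.54, 8.86, 11.36, 9.30, 9.06 and 10.90. With each of the 14 globin-rich aspirates left out in turn, C3 missed the threshold in 8 turns, COL4A1 and CCL21 in 6 each and CAV1 in 3, aspirate 11 being among them each time. The lowest differences were 1.01, 0.70, 0.66 and 0.76, all without aspirate 11. SNCG, CNN3 and SERPINE2 passed in all 14 turns, and at a threshold of 9 only SNCG of these 7 genes did, at 0.82. CD28, CD6, CD4, NCR3, ENG, LEP and TNNT3 each missed it without at least aspirate 1. The interferon list had 19 of 19 differences above 0, with a median of 0.25 and 0 called, and the cytotoxic and natural killer list 14 of 15, with a median of 0.29. For globin-poor aspirates against the same nodes these were 14 of 19 and 15 of 15, with medians of 0.10 and 0.24.

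Of the 278 genes called, 18 were also among the 35 that differed between the aspirate groups, and both sets use the same globin-rich samples. DDX39B rose against node by 1.36, TRIR by 1.19, GIGYF1 by 1.18, CERT1 by 1.09, SEPTIN1 by 1.03, ANKRD44 by 1.02, the MHC class I gene DLA88 by 1.02 and the myeloid and B-cell transcription factor gene SPI1 by 1.00. MORC1 fell by 1.12, OMG by 1.09, the centriole gene STIL by 0.71, LOC610994 by 0.62, NINL by 0.61, PBX3 by 0.61 and the sorting adaptor gene STAM by 0.59. The high DDX39B range held 13 of 14 globin-rich aspirates, 0 of 5 globin-poor ones and 12 of 39 nodes. With DDX39B as a covariate 51 genes were called, 32 of them among the 278. ALAS2 (0.88), GNG11 (1.73), MYLK (1.09), NCR3 (0.30), CAV1 (1.43), SERPINE2 (1.38), COL4A1 (1.36), CNN3 (1.18) and SNCG (0.97) still passed, while CD4, CD6, CD28, CCL21 and GATA1 did not. DDX39B is itself one of the 278 and was picked after the data were seen. The fit thus takes out part of the group difference by construction and does not sort these genes. Without aspirate 15 the count was 542, with 271 of the 278 among them. It was 116 without aspirate 4, 117 without aspirate 1, 181 without aspirate 10, 183 without aspirate 7 and 183 with DLBCL nodes alone. Of the 42 named genes called, 20 passed in every turn, and 20 passed at a threshold of 9 while 22 did not.

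Globin-poor aspirates were not separated from lymph node by any gene at the same threshold, with 5 arrays against 39. Limma called 0 of 15110 genes (0%), and 723 had an unadjusted p below 0.05 where chance gives 755.5. The olfactory receptor gene OR4B1E came closest, at 0.43 ± 0.09 (limma adjusted p = 0.0649), with aspirate 18 at 5.55 and the other globin-poor aspirates between 4.35 and 4.48. ALAS2 differed from node by 0.003, GNG11 by 0.45, S100A8 by 0.43 and CD4 was at 8.52 against 8.51. The fit shares the nodes with the globin-rich comparison, and fewer arrays give it less precision.

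The clinical labels were compared between the aspirate groups as well. Mutation of the antibody heavy chain variable gene (IGHV) was labelled static in 4 and ongoing in 9 globin-rich aspirates, with 1 listed as ND, and static in 3 and ongoing in 2 globin-poor ones. That was 30.8% against 60.0% static, with a two-sided Fisher's exact p of 0.326. Progression-free survival times, in the unit of the labels, had a median of 300.0 in globin-rich dogs (12 events in 14) and 193 in globin-poor dogs (4 in 5), and the exact permutation log-rank p was 0.716. Median overall survival times were 441 and 195, with 10 and 3 events (exact permutation p = 0.886). With 5 dogs in a group these tests leave wide room for differences.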

How the data were processed

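The deposited values are on the log2 scale, 43035 probe sets on each of 58 arrays, and came from RMA in Affymetrix Expression Console, per the submitters' processing notes. Versions, scan dates and batches are not given in the sources used here. RMA normalizes between arrays, so a very abundant transcript can shift others slightly; the arrays were therefore also normalized again without globin probe sets. A platform table gave 29254 probe sets 1 symbol, 439 several and 13231 none, and a gene was read from its probe set with the highest mean (15115 genes). Globin genes were found by symbol and by neighbours in the RefSeq table (assembly UU_Cfam_GSD_1.0). They stayed in the fits and in the adjustment of p but were left out of the counts of the group comparisons (15110 genes). The counts for slopes in nodes and for the interaction keep all but LOC476825 (15114). Aspirates are numbered in accession order.

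Tests used limma 3.58.1 under R 4.3.3 (lmFit and eBayes, two-sided, Benjamini-Hochberg over all genes, threshold 0.05), over 19 aspirates, over 58 samples in 3 groups (nodes shared), or over 39 nodes against the LOC476825 level. The fit was tested on simulated data. Exact permutations enumerated 11628 assignments (Python 3.11.15, SciPy 1.17.1). Each sample is a different dog, so p-values measure the spread between dogs, and the number of arrays limits the precision. The members and gene lists were chosen with earlier results of these data known. Named genes were up to 15 per direction past the threshold by size, or the 20 with the smallest p where fewer than 5 passed, up to 4 called members per list, and preset blood and tumour genes. CD22, CD74, FBXO7, HNRNPUL1, LARP1 and PCIF1 were named after their values were seen.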

Additional observations from a re-analysis of the deposited data

Results flagged for a closer look

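In the 5 globin-poor aspirates, 59 genes were checked for a sample far from the others, and 6 had one; chance marks about 1 in 20 such groups. Aspirate 18 was the highest for CERT1, at 6.76 with the next at 6.19, for ANKRD44, at 9.70 with the next at 8.75, and for HOXA2, at 5.72 with the next at 5.59. It was the lowest for TCF4, at 7.90 with the next at 9.45. Aspirate 17 was the highest for TLX1, at 6.03 with the next at 5.84, and for OR2T2, at 6.70 with the next at 6.50.

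A difference in slope between specimens was found for OMG, 1 of 4 genes called among 15114. The OMG slope on LOC476825 was -0.17 per log2 unit in aspirates and 0.44 in lymph node, and the difference of -0.61 passed in limma (adjusted p = 0.0128). MFSD13A (-0.21) and PTCHD4 (-0.23) were also called. LOC476825 ran from 4.00 to 13.46 in aspirates and from 3.57 to 8.70 in nodes, so the slopes cover unlike ranges, whose part was not tested.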

How the results depend on the processing

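No paired analysis was possible because replicate numbers follow accession order and each sample is a different dog. Between the aspirate groups 35 genes were called. The count stayed within 1.5 times that with the mean of probe sets (24 of the 35 shared) and a filter on low levels (30). It did so too with normalization without globins (28), median centring (35), a threshold of 7 (35) and a split by LOC100855558 (35). With DDX39B as a covariate the count also stayed within that range, but with 0 genes shared. It was 0 by the rank-sum test (1398 at an unadjusted p below 0.05; its smallest possible p is 0.000172 and its smallest adjusted p 0.113), 0 at a threshold of 9 (997), 20 with the continuous level, 20 with IGHV status as a covariate, 185 without the 2 arrays of lowest correlation, and 12 to 130 when single aspirates were left out. Globin-rich aspirates against node gave 183 with DLBCL nodes alone, 51 with DDX39B as a covariate and 116 to 542 when single globin-rich aspirates were left out. Globin-poor aspirates against node gave 1 without the 2 arrays of lowest correlation. The slope in nodes gave 11 with the mean of probe sets and 2 with diagnosis as a covariate. At a threshold of 9 the difference in mean correlation turned to 0.000312. DDX39B as a covariate turned the sign between aspirate groups for CAPNS1 (-0.12), IL2RG (-0.26), SEPTIN1 (-0.45), SLC25A39 (-0.30) and TRIR (-0.52), and against node for DLA88 (-0.029), LOC610994 (0.027), MORC1 (0.032), SEPTIN1 (-0.058), SPI1 (-0.044) and TRIR (-0.21). The causes were not tested. Covariate fits with DDX39B, the fits that left out globin-rich aspirates against node and the slopes within globin-rich aspirates were chosen after seeing the data.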
